A study of Rattus norvegicus with 6 samples.

Results

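The platelet-derived growth factor (PDGF) and insulin-like growth factor (IGF) genes considered here are 10 genes listed by symbol: the ligand genes Pdgfa, Pdgfb and Igf1, the receptor genes Pdgfra, Pdgfrb and Igf1r, and the IGF-binding protein genes Igfbp3, Igfbp4, Igfbp5 and Igfbp6. All probe sets annotated to 1 of these genes alone were taken, which gave 20 probe sets for 9 genes, out of 31042 probe sets and 14217 named genes on the array. The annotation used here names no probe set for Pdgfb, so Pdgfb has no value. Each of the 6 arrays holds lung RNA of a different Lewis rat, and Lewis is an inbred strain. The 3 silica animals (lung_silica) breathed crystalline silica dust (Min-U-Sil 5) at 6.2 mg/m3, 6 hours a day and 5 days a week for 6 weeks, and the 3 control animals (lung_control) breathed filtered air under like conditions. Neither age nor sex, nor how long after exposure the lungs were taken, is stated in the labels.

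PDGF ligands are dimers that activate receptor tyrosine kinases on mesenchymal cells: the A chain binds the alpha receptor, and the B chain binds both the alpha and the beta receptor. IGF-1 is made in lung by macrophages and fibroblasts among other cells, acts through its own receptor tyrosine kinase, and is held by secreted IGF-binding proteins that can either limit or prolong its action. Both families drive fibroblast growth and are well known in the biology of lung fibrosis, which is part of the subject that the title of the series declares.

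Values are linear signals in arbitrary units, as the authors deposited them, and their trimmed means were nearly equal on the 6 arrays. Differences are log2 fold changes (silica minus control) ± SE of log2(signal + 16), so the change of a dim probe set comes out too small, and p-values are from limma, two-sided and adjusted by Benjamini-Hochberg over all 31042 probe sets, with a threshold of 0.05. The files hold no detection calls, and probe sets are called dim where the mean signal was under 32 in both groups. Arrays correlated with the others of their group at 0.9775 or higher over all probe sets, and with arrays of the other group at up to 0.9786. The mean log2 difference between the 3-prime and 5-prime control probe sets of beta-actin and GAPDH, a measure of RNA quality, ran from 0.99 to 1.23 in control and from 1.15 to 1.67 in silica. The lung label was met by the surfactant gene Sftpc, with signals between 19545.7 and 24854.9 on the 6 arrays, the club cell gene Scgb1a1, between 21932.2 and 29191.0, and the alveolar type 1 cell gene Ager, between 12872.3 and 16235.9. Of 5 liver genes Apoa1 and Fgb were dim, while Alb (135 in control and 145 in silica), Ttr (58.3 and 70.1) and Cyp2c11 (38.9 and 32.2) were not. Heart muscle markers differed widely among the animals, with a summed signal of 5 genes between 220 and 3354 in control and between 675 and 2433 in silica.

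Most readings of these genes leaned downward in the silica lungs, while Igf1 read higher and Igfbp4 and Pdgfrb showed little difference. By the brightest probe set, 7 of the 9 genes had a negative log2 fold change and 2 a positive one, with a median of -0.21, against 0.02 over all genes. Igfbp5 had the lowest values relative to control in its probe sets, and Igf1 the highest. None of the 20 probe sets passed the threshold (limma), where 1.08% of all probe sets did. The smallest adjusted p among them was 0.0691, for a further probe set of Igfbp5.

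At an unadjusted p under 0.05, limma gave 6 of the 20 probe sets lower and 2 higher in silica, where 7.94% and 9.35% of all probe sets were lower and higher at that level. The 3 silica arrays lay wholly below the 3 control arrays in 8 of the 20 probe sets and wholly above them in 2, where the shares over all probe sets were 12.2% and 13.3%. Probe sets of the same gene read the same RNA and are not independent, and 4 of the 8 belong to Igfbp5. An exact permutation test of 3 against 3 arrays cannot give a p under 0.1. In bulk lung RNA, fewer cells of a type and less RNA per cell cannot be told apart.

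**Figure D1:**
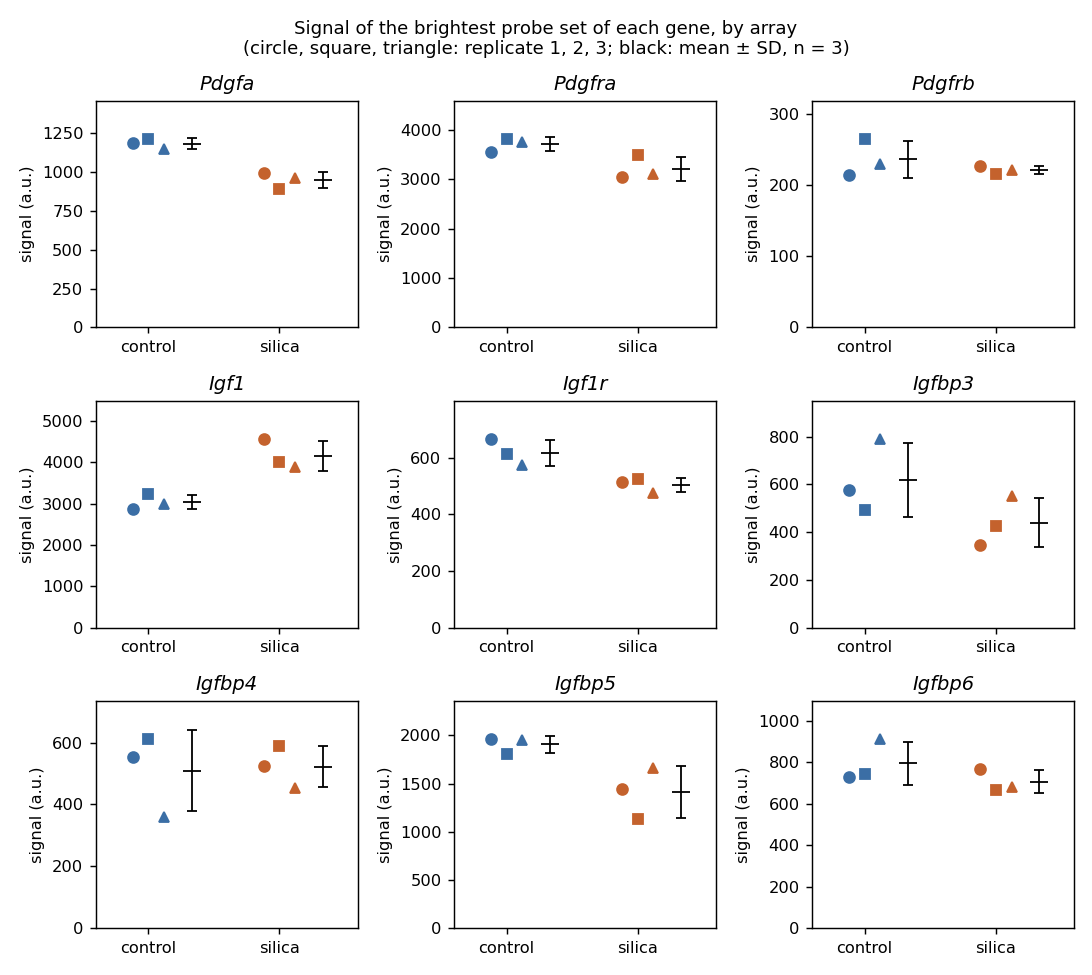
Signal of the brightest probe set of each of the 9 measured genes (vertical axes in arbitrary units, from 0) in the 3 control and 3 silica arrays, with the mean ± SD in black. The groups do not overlap for Pdgfa, Pdgfra, Igf1, Igf1r and Igfbp5, with Igf1 higher in silica and the other 4 lower, and they overlap for Pdgfrb, Igfbp3, Igfbp4 and Igfbp6.

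Among the PDGF genes, Pdgfa, which encodes the A chain, was read by the single probe set 1370427_at. Its signals were 1185.0, 1212.2 and 1143.0 in the control animals and 992.1, 888.7 and 961.0 in the silica animals. Every silica array was below every control array, and the mean went from 1180 ± 34.9 to 947 ± 53.1 (SD, n = 3 each). The log2 fold change was -0.31 ± 0.10 (limma adjusted p = 0.188), with a 95% interval from -0.55 to -0.08, so the interval reached no further than 0.685 of the control level. Among the genes lower in silica by brightest probe set it had the smallest unadjusted limma p, 0.0164.

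Pdgfra, the receptor for the A chain and a marker of lung fibroblasts, was bright. Its probe set 1370941_at gave 3554.6, 3818.6 and 3740.4 in control and 3033.4, 3484.6 and 3103.0 in silica. The groups did not overlap, but silica replicate 2 lay only just under control replicate 1. The log2 fold change was -0.21 ± 0.10 (limma adjusted p = 0.356), with an interval from -0.46 to 0.04.

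Pdgfrb, the receptor of pericytes and smooth muscle that binds the B chain, had 3 probe sets. The brightest, 1370642_s_at, gave 213.8, 265.3 and 230.2 in control and 226.7, 215.3 and 221.2 in silica. The silica values lay inside the control range, and the log2 fold change of -0.09 ± 0.11 had an interval from -0.36 to 0.19, which corresponds to between 0.781 and 1.14 of the control level. The further probe set 1379211_at had the opposite sign (0.31 ± 0.31). Its control replicate 1 read 32.3 against 89.5 and 83.3 in the other controls, and without that array the log2 fold change was -0.05. The last, 1391394_s_at, was dim (21.0 ± 14.3 in control and 12.6 ± 6.84 in silica) and carries little information. The suffix _s_at marks a probe set whose probes can match more than 1 transcript, so such values need not come from a single transcript.

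Igf1, the IGF ligand, was the only one of these genes with a brightest probe set wholly higher in silica. Probe set 1370333_a_at read 2877.4, 3222.2 and 2996.9 in control and 4565.8, 4014.7 and 3872.0 in silica. The lowest silica array was above the highest control array, and the mean went from 3032 ± 175 to 4151 ± 366, or 1.37 times the control level. The log2 fold change was 0.45 ± 0.11 (limma adjusted p = 0.135), with an interval from 0.18 to 0.72.

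The further Igf1 probe sets gave smaller differences of the same sign. Probe set 1382599_at read 590.6, 573.8 and 607.3 in control and 661.0, 727.7 and 713.0 in silica, again with no overlap (0.24 ± 0.09, limma adjusted p = 0.271). Probe set 1388469_at read 1416.3, 1385.4 and 1495.4 in control and 1861.2, 1273.2 and 1929.3 in silica (0.21 ± 0.18, limma adjusted p = 0.588). There silica replicate 2 was below every control while the other silica arrays were above every control. Without that array this probe set had a log2 fold change of 0.40, without silica replicate 1 it had 0.13, and without silica replicate 3 it had 0.10.

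Some macrophage markers were higher in silica, as was the Igf1 reading, which did not pass the threshold. Of 12 measured macrophage genes 5 rose and none fell, where 1.55% of all genes rose and 0.120% fell (1.67% in either direction), by brightest probe set at an adjusted p under 0.05. They were Cd68, Itgax and the complement genes C1qa, C1qb and C1qc, with log2 fold changes of 0.88, 0.83, 1.47, 1.30 and 1.09. Leaving out any 1 array left at most 12 of all 31042 probe sets past the threshold, against 335 with all arrays, and the RNA quality measure as a covariate left 0, so most calls of any gene were lost in those fits, which have fewer residual degrees of freedom. The list's median was 0.83, while Mrc1, Csf1r and Lyz2 had 0.03, 0.10 and -0.21, and Cd163, the lowest, had -0.45. The summed signal of the list ran from 33829 to 34935 in control and from 36677 to 45544 in silica. Lyz2 was the largest part of that sum, with 20196 ± 881 in control and 17624 ± 3636 in silica. It read 21763.1 in silica replicate 2, the array with the highest sum, so the sum is no direct measure of macrophage content. Of 10 measured lymphocyte genes 6 rose, all of them T cell genes (among them Zap70, Cd3d, Cd3e and Lck, at 1.07, 1.27, 1.23 and 0.87), while the B cell genes Cd79b and Ms4a1 both had 0.07 and Cd4 had -0.01. The list had a median of 0.98 and sums from 3188 to 3664 in control and from 5895 to 7229 in silica. The part of either cell type in the Igf1 reading was not tested.

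Igf1r, the receptor for IGF-1, had the opposite sign to its ligand in both of its probe sets. The brighter, 1392492_at, read 666.5, 611.5 and 573.9 in control and 512.9, 523.4 and 474.0 in silica. The groups did not overlap (-0.28 ± 0.10, limma adjusted p = 0.246), with an interval from -0.54 to -0.03. The dimmer one, 1368123_at, read 245.4, 268.7 and 250.8 in control and 243.2, 170.2 and 234.0 in silica. Here the groups were separated by a narrow margin, with silica replicate 1 almost at the control level (-0.24 ± 0.15, limma adjusted p = 0.472). Without silica replicate 2, the lowest array, the log2 fold change was -0.09.

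**Figure D2:**
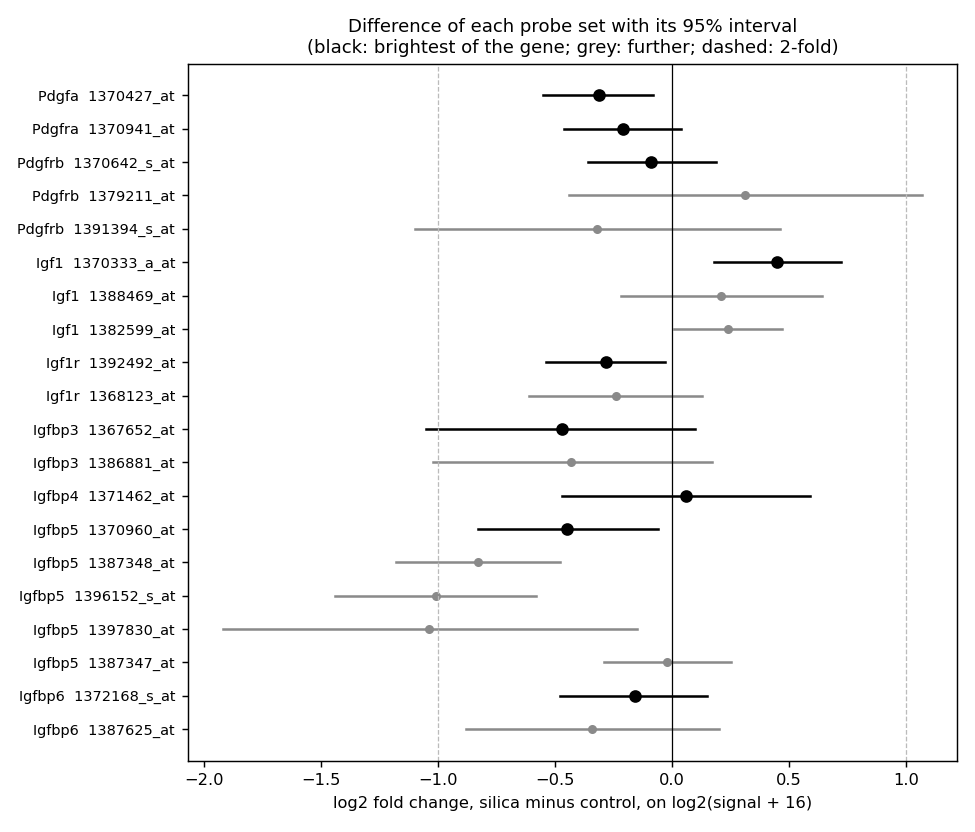
Log2 fold change (horizontal axis, silica minus control on log2(signal + 16)) of all 20 probe sets with 95% intervals from limma, the brightest of each gene in black and further ones in grey; dashed lines mark 2-fold. Point estimates are negative for 15 probe sets, and 4 of the 5 Igfbp5 intervals lie wholly below 0.

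Igfbp5, a binding protein secreted by fibroblasts and smooth muscle that also attaches to extracellular matrix, gave the largest differences over all 20 probe sets, though not by brightest probe set, where Igfbp3 was slightly lower. Its brightest probe set, 1370960_at, read 1962.5, 1807.9 and 1948.5 in control and 1438.2, 1126.5 and 1661.6 in silica. The groups did not overlap, and the mean went from 1906 ± 85.5 to 1409 ± 269 (-0.45 ± 0.16, limma adjusted p = 0.232). The silica values were more spread than the control values, and without silica replicate 2 the log2 fold change was -0.30.

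Probe set 1387348_at had a nearly constant control level, at 596.8, 594.1 and 590.1, against 335.5, 386.6 and 269.7 in silica. This is 0.557 of the control mean (-0.83 ± 0.14, limma adjusted p = 0.0691), with an interval from -1.18 to -0.48. Probe set 1396152_s_at read 178.5, 183.3 and 247.4 in control and 74.6, 96.6 and 107.1 in silica. Its silica mean was 0.457 of the control mean (-1.01 ± 0.18, limma adjusted p = 0.0701).

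Probe set 1397830_at read 160.5, 109.1 and 138.7 in control and 74.5, 25.7 and 89.1 in silica (-1.04 ± 0.36, limma adjusted p = 0.227), and without silica replicate 2 the log2 fold change was -0.63. The last Igfbp5 probe set, 1387347_at, was dim on every array (7.60 ± 1.00 and 7.33 ± 2.28) and gave no usable difference (-0.02). In all, 4 of the 5 Igfbp5 probe sets had every silica array below every control array, with log2 fold changes from -1.04 to -0.45; the differences in size between them were not tested. With the mean of the 5 probe sets in place of the brightest, fitted as 1 value per gene and adjusted over 14217 genes, Igfbp5 passed (-0.67, limma adjusted p = 0.0367). The share of all genes that passed in that fit was not counted, so this call has no background beside it.

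**Figure D3:**
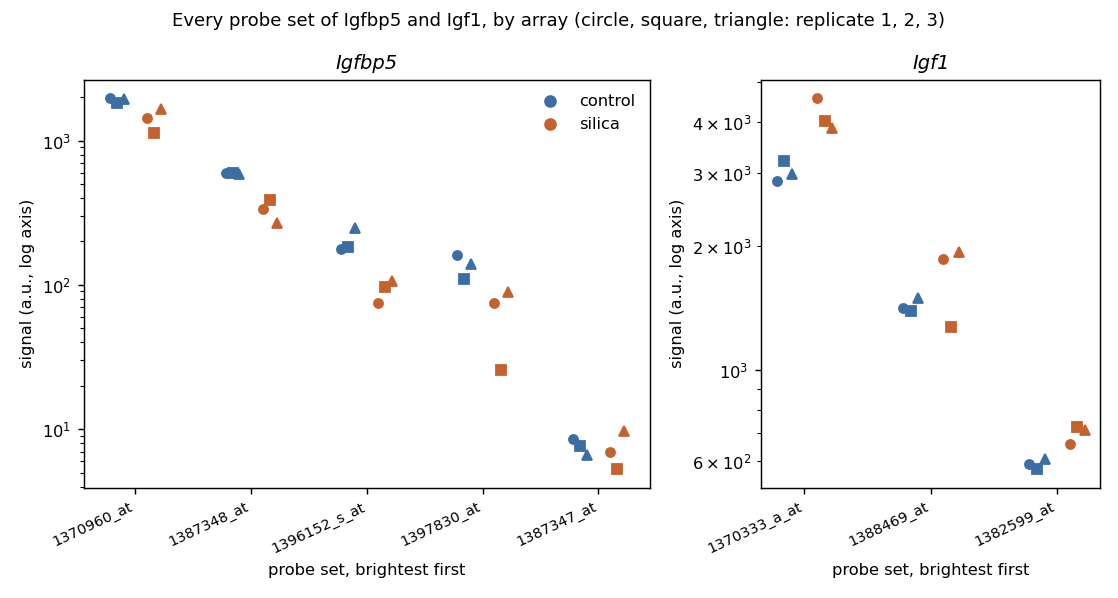
Signal (log axis, arbitrary units) of every probe set of Igfbp5 and Igf1, brightest first, with control arrays in blue and silica arrays in orange. In 4 of 5 Igfbp5 probe sets the silica points lie below all control points; in Igf1 they lie above in 2 of 3, and silica replicate 2 (square) lies below the controls in 1388469_at.

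Igfbp3, which carries most IGF in serum and is also made by lung fibroblasts, had the lowest log2 fold change of the 9 genes by brightest probe set, but with a wide spread. Probe set 1367652_at read 574.7, 492.7 and 790.5 in control and 345.2, 425.1 and 551.1 in silica (-0.47 ± 0.23, limma adjusted p = 0.360). The groups overlapped, since silica replicate 3 was above control replicate 2. The further probe set 1386881_at read 366.0, 305.5 and 376.8 in control and 280.8, 172.7 and 339.3 in silica (-0.43 ± 0.25, limma adjusted p = 0.427). The first interval ran from -1.05 to 0.10 and the second from -1.02 to 0.17, so a difference of 2-fold lower lay within each.

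Control replicate 3 was the highest control array for Igfbp3 and Igfbp6 and the lowest for Igfbp4. The same array had the highest level of the matrix gene Dcn, at 4757.9 against 2784.4 and 1981.0 in the other controls, and the highest sum of the 13 fibroblast markers, at 50767 against 44817 and 42216. It also had the smallest 3-prime to 5-prime difference of the 6 arrays. With that difference as a covariate, the log2 fold change of 1367652_at was -0.05, and without control replicate 3 it was -0.29. For 1386881_at it was -0.20 with the covariate and -0.37 without control replicate 3, close to the -0.43 of all arrays. Without silica replicate 2 it was -0.16.

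Igfbp4, a binding protein known chiefly as an inhibitor of IGF action, showed no difference of settled sign. Probe set 1371462_at read 554.5, 611.7 and 360.2 in control and 523.5, 588.1 and 454.6 in silica (0.06 ± 0.22, limma adjusted p = 0.912). The interval from -0.47 to 0.59 still allowed up to 1.51 times the control level. Without control replicate 3 the log2 fold change was -0.16.

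Igfbp6, a binding protein with a preference for IGF-2, was lower on average in silica in both probe sets, with overlapping groups. Probe set 1372168_s_at read 729.1, 742.0 and 913.1 in control and 769.7, 666.7 and 681.7 in silica (-0.16 ± 0.13, limma adjusted p = 0.569). Probe set 1387625_at read 691.0, 667.7 and 981.9 in control and 718.9, 466.0 and 658.5 in silica (-0.34 ± 0.22, limma adjusted p = 0.488). Silica replicate 1 was above 2 of the 3 controls in both. Without control replicate 3 the log2 fold changes were -0.06 and -0.16, and the second was also -0.16 without silica replicate 2.

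Cells that make the binding proteins and carry the PDGF receptors were followed through their markers. Of 13 fibroblast genes none passed (limma; 1 was higher and 1 lower at an unadjusted p under 0.05, where 12.6% and 7.27% of all genes were), with a median of -0.12 and a summed signal between 42216 and 50767 in control and between 37716 and 42769 in silica. Dpt had the smallest p of that list (-0.44 ± 0.11, limma adjusted p = 0.140). Col1a1, the main chain of type I collagen, had 0.43, the highest of the list, while the collagen genes Col1a2 and Col3a1 had -0.12 and 0.09. Of 13 pericyte and smooth muscle genes none passed either (0 higher and 3 lower at an unadjusted p under 0.05, against the same shares of all genes), with a median of -0.11 and sums between 9576 and 10866 in control and between 9221 and 9511 in silica. The pericyte gene Rgs5 had the smallest p and the lowest value of that list, with 232.2, 201.7 and 284.8 in control and 132.7, 110.6 and 138.1 in silica (-0.83 ± 0.16, limma adjusted p = 0.0806). Other pericyte genes did not share its size: Abcc9 and Higd1b had -0.34 and -0.29, and Notch3 and Cspg4 had 0.17 and 0.05. The part of these cells in the Igfbp5, Igfbp3 and Pdgfra readings was not tested. Of 12 lung epithelial and 5 liver genes none passed (limma; 3 epithelial genes were lower at an unadjusted p under 0.05, where 7.27% of all genes were), with medians of -0.13 and 0.20. No gene of platelets and megakaryocytes (6 measured), mesothelium (5) or endothelium (8) passed by its brightest probe set (limma; 1 endothelial gene, Kdr, was lower at an unadjusted p under 0.05 and none was in the other lists), with medians of -0.05, -0.14 and -0.16. A further probe set of the endothelial gene Egfl7 fell (-0.83), while its brightest had -0.24 (limma adjusted p = 0.302).

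Other genes of the pathways were taken from a list of 105 genes in 13 roles, of which 91 had a probe set. None passed by its brightest probe set (limma). At an unadjusted p under 0.05, 12 were higher and 9 lower, where 12.6% of all genes were higher and 7.27% lower. In 21 genes the silica arrays lay wholly above control and in 15 wholly below, where the shares over all genes were 18.7% and 12.7%. The median of the 91 genes was 0.03. Of their 158 probe sets 1 passed, against 1.08% of all probe sets. It was a probe set of the transcription factor gene Foxo3, a target of AKT, counted as dim, with 28.8 ± 3.47 in the control lungs and 6.10 ± 3.82 after silica (limma adjusted p = 0.0468), so its fold is uncertain. The other Foxo3 probe sets had 0.17, in the brightest, and -0.06.

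**Figure D4:**
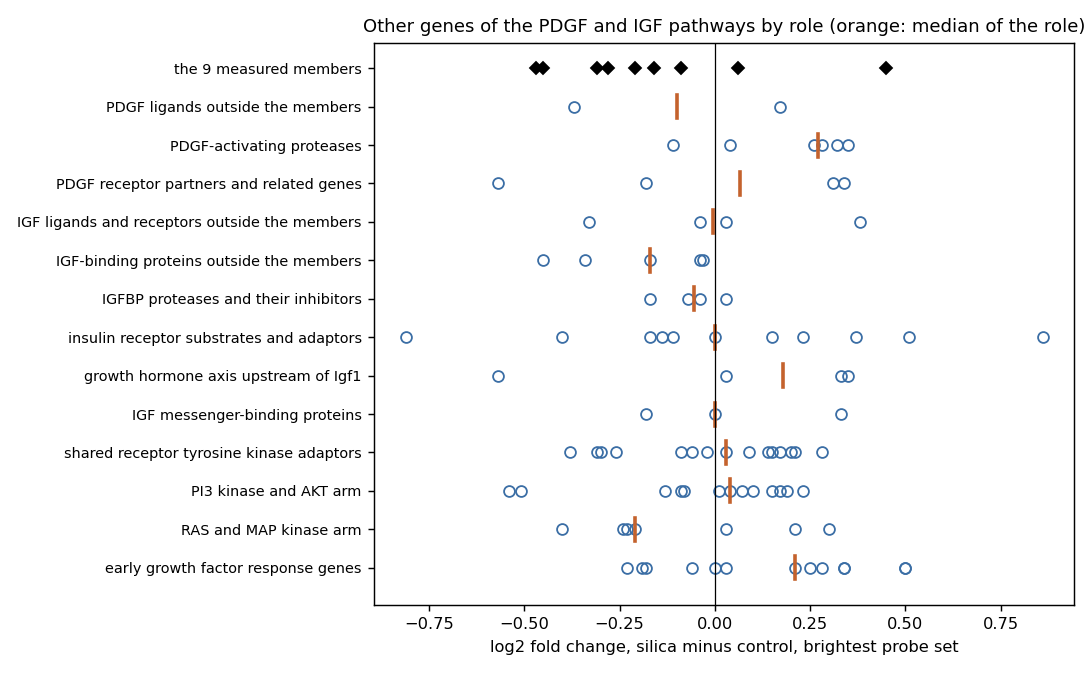
Log2 fold change (silica minus control, brightest probe set) of the 9 measured members (black) and of 91 other PDGF and IGF pathway genes by role (circles), with each role's median in orange. Medians of the roles run from -0.21 for the RAS and MAP kinase arm to 0.27 for the PDGF-activating proteases.

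The remaining ligands showed no difference beyond their spread. The PDGF ligand genes Pdgfc and Pdgfd read 45.4 ± 16.3 and 63.0 ± 26.7 in control and 53.7 ± 19.3 and 44.2 ± 14.3 in silica. Igf2, the second IGF ligand, read 173 ± 60.1 in control and 163 ± 20.3 in silica (-0.04). Of the receptors, Igf2r, which clears IGF-2, had 0.03 ± 0.12, and the insulin receptor gene Insr -0.33 ± 0.15 (limma adjusted p = 0.330). Among 6 proteases that can activate PDGF precursors, St14, or matriptase, had the smallest p (825 ± 4.79 in control and 1057 ± 57.0 in silica, 0.35 ± 0.09, limma adjusted p = 0.152). The proprotein convertase genes Furin and Pcsk7 had 0.32 and 0.28. In these 3 genes every silica array was above every control array, where the share over all genes was 18.7%. The rest of that list, Pcsk5, Plat and Plau, had overlapping groups, at 0.26, 0.04 and -0.11. Further probe sets had -0.49 and 0.16 for Pcsk5 and -0.60 for Plau. Of the receptor partners, Ptprj, a phosphatase of the PDGF beta receptor, had 0.34 ± 0.11, and its further probe set -0.05.

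All 5 genes of binding proteins and related proteins outside the members had negative log2 fold changes, some of them near 0 or from dim probe sets. Only Igfbp7 and Igfbp2 had groups without overlap, where 12.7% of all genes lay wholly lower in silica. Igfbp7, the brightest, read 13208.3, 12370.9 and 16017.9 in control and 9015.1, 11247.5 and 10144.1 in silica, with no overlap (-0.45 ± 0.14, limma adjusted p = 0.203). Igfbp2 was at 632 ± 50.8 in control and 497 ± 36.8 in silica, also with no overlap (-0.34 ± 0.11, limma adjusted p = 0.212). Igfbp1 and Igfals were dim (-0.17 and -0.04), and Igfbpl1 had -0.03. The binding protein proteases and their inhibitors (4 of 7 measured) lay between -0.17 (Pappa2) and 0.03.

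Upstream of Igf1, the growth hormone receptor gene Ghr read 388.3, 402.0 and 493.1 in control and 222.2, 332.8 and 297.3 in silica, so its sign was opposite to that of Igf1 (-0.57 ± 0.18, limma adjusted p = 0.191; further probe set -0.83). Stat5a, a transcription factor downstream of that receptor, was at 376 ± 31.8 in control and 474 ± 8.90 in silica (0.33 ± 0.10, limma adjusted p = 0.193). The suppressor genes Socs1 and Socs2 had -0.81 and 0.86, Socs1 being dim in both groups. Igf2bp2, which binds IGF-2 messenger RNA, had -0.18 ± 0.11.

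Downstream, the median was 0.03 over 15 shared adaptors, 0.04 over 13 genes of the PI3 kinase and AKT arm and -0.21 over 7 genes of the RAS and MAP kinase arm. The adaptor gene Gab1 had -0.30 ± 0.10 (limma adjusted p = 0.196), the PI3 kinase regulatory subunit gene Pik3r3 -0.54 ± 0.24 (limma adjusted p = 0.309) and the MAP kinase kinase gene Map2k2 0.30 ± 0.10 (limma adjusted p = 0.206). The main AKT gene Akt1 had 0.07 ± 0.09. Of 13 early growth factor response genes none passed (limma). At an unadjusted limma p under 0.05, 2 were higher, where 12.6% of all genes were. Egr2 had the smallest p of that list, with 451 ± 57.8 in control and 643 ± 26.7 in silica (0.50 ± 0.12, limma adjusted p = 0.136). Genes of dividing cells did pass: 5 of 10 rose and none fell, where 1.55% of all genes rose and 0.120% fell. Among them were Mki67 (1.65), Cdc20 (1.30), Ccna2 (1.89) and Bub1 (1.18), with the same limit as the macrophage calls. The 4 further probe sets of Cdc20 had 0.07 to 1.29, and none of them passed. A link between the genes of dividing cells and the PDGF or IGF readings was not tested.

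**Figure D5:**
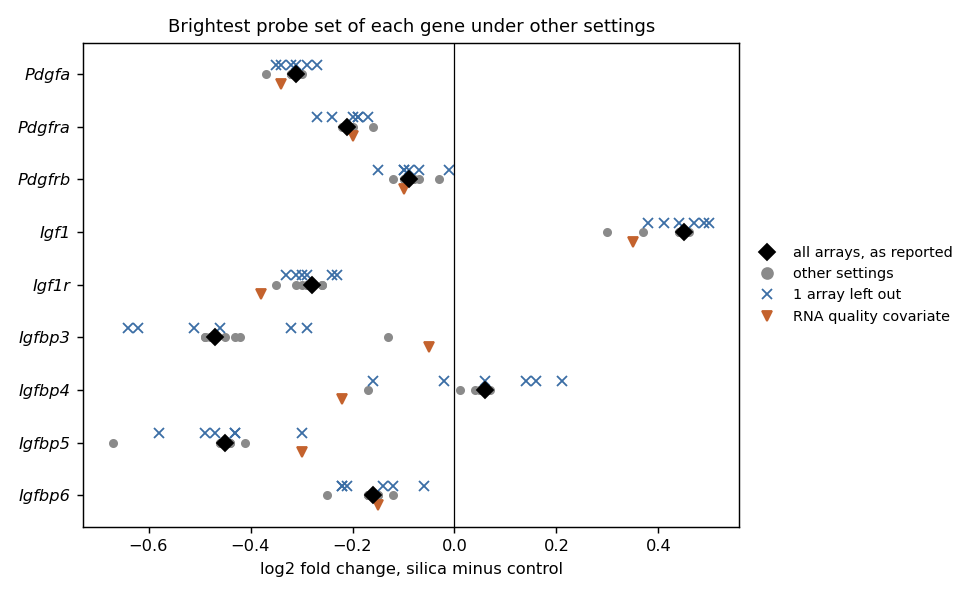
Log2 fold change (horizontal axis, silica minus control) of the brightest probe set of each gene with all arrays (black diamonds), with 1 array left out (crosses), with an RNA quality covariate (triangles) and under the other settings (grey). Of the 9 genes only Igfbp4 changes sign; Igf1 stays between 0.30 and 0.50 and Igfbp3 runs from -0.64 to -0.05.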

How the data were processed

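The authors' deposited table holds linear signal intensity values, 1 per probe set and array, for 31099 probe sets. RNA was extracted with TRI reagent and made into biotin-labelled cRNA, per the labels. No label names the summarising software. Trimmed means (2% off each end) lay between 500.14 and 500.15; how the arrays were scaled is not stated. The 57 array control probe sets were left out. Symbols came from the platform annotation, updated by gene identifier to RefSeq's GRCr8 table (20758 of 20826 single-gene probe sets matched). A gene is represented by its brightest probe set. Samples were grouped by their titles.

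Signals were analysed as log2(signal + 16) with limma 3.58.1 (lmFit, eBayes) in R 4.3.3, fitting group alone; residual degrees of freedom were 4 and those of the prior 2.18. The fit was also run on simulated data with known changes, drawn with the means and spreads of these arrays. The members and lists were chosen with earlier results of these data known. The genes named are all members with every probe set, pathway genes past the threshold and the gene with the smallest p in each role. Up to 4 genes per cell marker list with the smallest p among those past the threshold, and lung markers, are named too. Of the pathway genes, Pcsk5, Pcsk7, Furin, Plat, Plau, Igfbp2, Stat5a, Socs2, Akt1 and the other ligands and receptors were added after their values were seen. So were Dcn, Col1a1, Col1a2, Col3a1, Abcc9, Higd1b, Notch3, Cspg4, Mrc1, Csf1r, Lyz2, Cd163, Itgax, Egfl7, Cd4, Cd79b, Ms4a1 and the liver genes. Alternatives were other normalizations, pseudocounts and filters, a trended robust spread, array weights, an RNA quality covariate, a replicate block, the mean of a gene's probe sets and arrays left out. The number of arrays, 3 per group, limits the precision.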

Additional observations from a re-analysis of the deposited data

How the results depend on the processing

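None of the 20 probe sets of the members passed (limma; 8 at an unadjusted p under 0.05), and none did with quantile normalization, median centring, pseudocount 1, array weights, the RNA quality covariate or any array left out. With the dimmer 50% left out, 2 of the 15 member probe sets still tested passed (Igf1 1370333_a_at, 0.45, and Igfbp5 1387348_at, -0.83). There 1675 of all 15521 tested probe sets passed. With an intensity trend and robust spread 3 of 20 passed (also Igfbp5 1396152_s_at, -1.01), where 1862 of all 31042 did. With pseudocount 64 the 2 Igfbp5 ones passed (-0.75 and -0.76), where 919 of all 31042 did. In the fit on the mean of a gene's probe sets, Igfbp5 passed (-0.67) and no pathway gene did. Pathway genes called were 0 in the reported fit, 2 with the dimmer 50% left out (St14, Egr2) and 4 with the trend (also Igfbp7, Gab1). Over all probe sets, 335 passed, against 1675 and 1862 in those 2 settings, 919 with pseudocount 64, 43 with pseudocount 1, 0 with the RNA quality covariate, 0 to 12 with 1 array left out, and 0 with control replicate 3 and silica replicate 1 both left out, an alternative chosen after seeing the data. The dimmer 50% left out tests fewer probe sets, and leaving out arrays fewer samples; the cause of the other changes was not tested. The share of lower among the calls was 45 of 335, and 631 of 1675 and 721 of 1862 in the 2 settings with most calls. Sign changed in 3 of the 20 probe sets: Igfbp4 (-0.22 with the covariate, -0.17 with both arrays left out, -0.16 to 0.21 with 1 left out), the dim Igfbp5 1387347_at (0.05 with the covariate, -0.09 to 0.04 with 1 left out) and Pdgfrb 1379211_at (-0.05 to 0.52 with 1 left out). As a replicate block, the number in the titles left 1 probe set passing and 0 of the members. Deviations from the group mean correlated at r = 0.09, 0.04 and 0.09 between same-numbered arrays, against -0.08 to 0 between differently numbered ones. Though the values were small, each array ran most with its own number. Deviations from a group mean sum to 0 within the group, so these r are tied to each other. Positive ones between same-numbered arrays leave the others lower. The reported fit did not take the numbers as pairs, and whether arrays were paired was not tested.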

Other observations

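Over the 6 arrays, the genes whose readings ran most like those of Igf1 were Dsc2, a desmosomal cadherin gene (Pearson r = 0.999, log2 fold change 0.73), Nemp2 (0.996, 0.34) and Gcsam, a germinal centre gene (0.996, 0.61). For Igfbp3 they were Sulf1, which encodes a heparan sulfate sulfatase (0.994, -0.26), Ezr, or ezrin (0.993, -0.12), and Rassf9 (0.993, -0.21). Of 12001 genes compared, 214 had r above 0.95 with Igf1 and 64 with Igfbp3, and the difference between the groups enters every r. With 6 arrays such values are common and the order among them is not firm. None of the 6 genes passed the threshold (limma).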
